A study of Mus musculus with 4 samples.

Results

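The genes described here are 8 transcription factor genes of the mesenchymal transition, Twist1, Twist2, Snai1, Snai2, Zeb1, Zeb2, Prrx1 and Tcf21. They were taken by name from 18193 genes on a mouse expression array, with all 22 of their probe sets read on all 4 arrays. Total RNA came from mouse embryonic fibroblasts (MEF), from primary-derived neural stem cells (NSC), and from induced neural stem cells obtained with either 13 factors (iNSC_13F) or 14 (iNSC_14F). Each of these 4 groups has 1 array, so the differences below could not be checked against replicates, and neither an SD nor a p-value is printed. The series title names adult mouse liver cells and B lymphocytes as the starting cells. Which of these gave rise to each induced sample, the identity of the factors, and the strain and age of the animals are not given in the labels. The NSC and the established induced lines were kept in N2 medium to which EGF, bFGF and laminin were added. The culture of the fibroblasts is not described. All 4 samples also carry a source label that names embryonic stem cells, which differs from their cell type labels.

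Most of these factors are best known for driving epithelial cells into a migratory, mesenchymal state in gastrulation, in the neural crest and in carcinoma. The Snail factors (Snai1, Snai2) and the ZEB factors (Zeb1, Zeb2) are zinc finger proteins that bind E-box elements and repress epithelial genes such as the E-cadherin gene Cdh1. Twist1, Twist2 and Tcf21 are basic helix-loop-helix (bHLH) proteins that pair with E proteins and mark mesodermal and mesenchymal cells, and Prrx1 is a homeobox factor of limb and craniofacial mesenchyme. The ZEB genes are also active in the nervous system, where Zeb1 is found in neural progenitors and Zeb2 in neural crest, neurons and glia.

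A signal is a linear MAS5 value of a probe set, scaled to the same mean on every array. Signals up to 103.91 were treated as not distinguishable from background. This floor was set on 86 probe sets of taste, odorant and vomeronasal receptor genes, and where an array did not exceed it the fold is a minimum, written with "at least" and called a bound. Between 9854 and 10561 genes lay above it on an array. Between the induced arrays, 95% of 9311 genes that exceeded the floor on both arrays had a fold difference of under 2.32, which is used as a yardstick although it holds real differences too. The hybridization controls, transcripts added to every sample, were 1.85-fold to 2.11-fold lower on the NSC array than on the others. The effect of scaling to them is given where it matters. Fibroblast and neural stem cell markers followed the cell type labels. Of 8 fibroblast markers on the array, 7 exceeded the floor in MEF, 0 in NSC against 3 in iNSC_13F and 2 in iNSC_14F, with a summed signal of 151240, 197, 885 and 423. Of 8 neural stem cell markers, 8 were above it on NSC and on both induced arrays and 4 in MEF, with sums of 2158 in MEF and 64492 in NSC, with 45340 in iNSC_13F and 53068 in iNSC_14F. No hepatocyte marker (0 of 6) was above the floor on any array, and of 7 B lymphocyte markers Ebf1 was above it on all 4 arrays and the others on none. In MEF, NSC, iNSC_13F and iNSC_14F, 3, 2, 3 and 4 of 8 neural crest markers were above the floor. For neurons these counts were 1, 2, 3 and 2 of 6, and for pericytes and smooth muscle 5, 2, 3 and 2 of 6. They were 2, 0, 1 and 1 of 6 for macrophages and microglia, and 1, 0, 1 and 0 of 5 for endothelium. Tfap2a of neural crest gave 205, 31.0, 426 and 1438, at least 4.10-fold and at least 13.8-fold above NSC in the induced samples. No neural crest marker was 4-fold below NSC.

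All 8 factors were above the floor in MEF, 3 were in NSC, 3 in iNSC_13F and 1 in iNSC_14F. Only Zeb1 was above it on all 4 arrays. Of the 22 probe sets, 18 were above the floor on at least 1 array, 2 were on every array and 4 were on none. In bulk RNA, fewer cells of a type and less RNA per cell cannot be told apart, and this holds for every difference below.

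**Figure D1:**
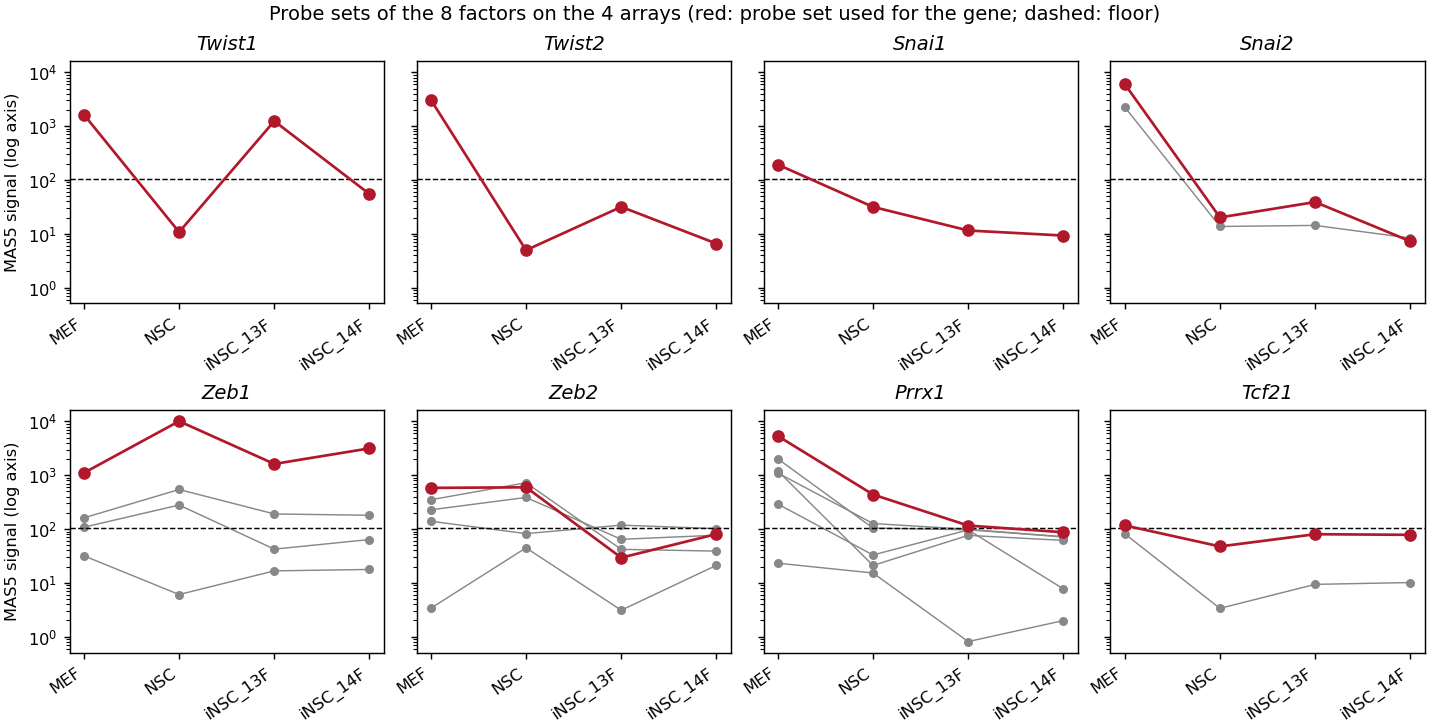
Signal of each probe set of the 8 factors on the MEF, NSC, iNSC_13F and iNSC_14F arrays, on a log axis, with 1 array per group. A line joins the values of 1 probe set, red marks the probe set used for the gene, and the dashed line is the floor of 103.91. Twist1 is above the floor in MEF and iNSC_13F, Zeb1 is highest in NSC, and 3 probe sets of Zeb2 are above the floor in MEF and NSC alone.

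The upstream sequences of Twist1, Twist2 and Snai1 are shown because the Twist paralogs differed most from each other on the iNSC_13F array and because Snai1 holds an E-box, the element that Snail, ZEB and Twist proteins bind. Each is the 250 bases before the annotated start in RefSeq, build GRCm38.p6. Twist1 lies at chr12:33957421-33957670, Twist2 at chr1:91801211-91801460 and Snai1 at chr2:167537945-167538194, all on the plus strand. Capitals mark CANNTG, the E-box, and CCAAT, a common promoter element, searched on both strands.
Twist1: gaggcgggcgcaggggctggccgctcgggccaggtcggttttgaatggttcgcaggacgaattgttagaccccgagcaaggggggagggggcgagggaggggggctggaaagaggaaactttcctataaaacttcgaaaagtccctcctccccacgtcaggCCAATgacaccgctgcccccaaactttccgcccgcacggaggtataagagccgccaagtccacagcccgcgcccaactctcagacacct
Twist2: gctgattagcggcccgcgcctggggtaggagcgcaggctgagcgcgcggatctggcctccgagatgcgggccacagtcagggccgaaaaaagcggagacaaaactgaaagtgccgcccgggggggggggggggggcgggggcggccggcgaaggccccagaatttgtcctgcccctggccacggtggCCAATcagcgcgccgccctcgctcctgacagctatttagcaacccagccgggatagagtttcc
Snai1: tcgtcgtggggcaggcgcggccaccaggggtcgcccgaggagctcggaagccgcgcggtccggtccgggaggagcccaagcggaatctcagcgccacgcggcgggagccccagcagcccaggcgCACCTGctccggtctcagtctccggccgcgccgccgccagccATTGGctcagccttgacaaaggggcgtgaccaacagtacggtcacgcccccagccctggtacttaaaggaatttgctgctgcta

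The E-box of Snai1 begins 126 bases before the start and reads CACCTG, the reverse complement of CAGGTG. The CCAAT element begins 89 bases before the start in Twist1, 63 in Twist2 and 84, on the minus strand, in Snai1. The windows read were 9 for 6 of the 8 factors, 4 of them for Zeb2, and none for Snai2 and Zeb1. Of these 9 windows 1 held CANNTG, against 66.2% of 32851 windows of that length in the genome, and 1 held CAGGTG, against 17.2%. CCAAT was in 4 of the 9, against 33.8%. Windows of the factors on 1 chromosome were left out before counting, while the genome windows include it. A factor without a window here may therefore still have an annotated start. These matches describe the letters of short windows, and several windows belong to 1 gene.

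Twist1 was the factor whose level differed most between the induced samples. Its single probe set gave a signal of 1638 in MEF and 10.8 in NSC, with 1241 in iNSC_13F and 54.7 in iNSC_14F. The iNSC_13F array thus lay near MEF, while NSC and iNSC_14F were below the floor. Twist1 was 1.32-fold lower in iNSC_13F than in MEF, which is within the yardstick. It was at least 15.8-fold lower than in MEF in both NSC and iNSC_14F, at least 11.9-fold higher in iNSC_13F than in NSC, and at least 11.9-fold lower in iNSC_14F than in iNSC_13F. These directions were the same when arrays were quantile normalized or scaled to hybridization controls. For the differences written as bounds this is no separate check, because their direction follows from which array exceeds the floor. Fibroblast markers on the iNSC_13F array were low beside the signal of Twist1. Of the 7 that were above the floor in MEF, Col1a1, Pdgfrb, Dcn and Postn were below it in iNSC_13F, Col1a2 and Col3a1 were at 116 and 157 against 51598 and 38978 in MEF, and Thy1 was at 472 against 10813.

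Twist2, the paralog of Twist1, did not follow it. Its single probe set gave 3084 in MEF and 4.96 in NSC, with 31.7 in iNSC_13F and 6.58 in iNSC_14F. It was therefore above the floor in MEF alone, and at least 29.7-fold lower on each of the other 3 arrays. Tcf21, a bHLH factor of visceral and cardiac mesenchyme, was barely detected anywhere. Of its 2 probe sets, 1458887_at gave 117 in MEF and 47.5 in NSC, with 80.2 in iNSC_13F and 78.1 in iNSC_14F, and 1417447_at gave 81.5, 3.36, 9.38 and 10.1. Against a MEF value this close to the floor the bound was at least 1.13-fold, so no difference in Tcf21 could be measured.

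Both Snail genes were above the floor in MEF alone, Snai1 only dimly. Snai2, a repressor active in neural crest and mesenchyme, was read by 2 probe sets. The first, 1447643_x_at, gave 6047 in MEF and 20.1 in NSC, with 38.9 in iNSC_13F and 7.27 in iNSC_14F, and the other, 1418673_at, gave 2260, 13.7, 14.3 and 8.32. Both were far above the floor in MEF and below it on the other 3 arrays, with bounds of at least 58.2-fold and at least 21.8-fold. The suffix of the first marks a probe set that may also bind other transcripts, and the bound from the other does not depend on it. Snai1, whose protein represses Cdh1 directly, had a signal of 193 in MEF and 31.6 in NSC, with 11.5 in iNSC_13F and 9.27 in iNSC_14F. It was detected in MEF alone, at a dim level that allows a bound of no more than at least 1.86-fold.

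Zeb1 was the only factor with a higher signal in NSC than in MEF beyond the yardstick. Its main probe set, 1418926_at, gave 1105 in MEF and 10083 in NSC, with 1620 in iNSC_13F and 3153 in iNSC_14F. NSC was 9.12-fold above MEF, while the induced arrays lay between the references, 1.47-fold above MEF in iNSC_13F and 2.85-fold in iNSC_14F. Against NSC they were lower by 6.23-fold and 3.20-fold. A second probe set, 1443005_at, gave 161 in MEF and 543 in NSC, with 191 in iNSC_13F and 180 in iNSC_14F, and 1446127_at gave 108, 279, 42.3 and 63.8. All 3 were thus highest in NSC, by 9.12-fold, 3.36-fold and 2.58-fold over MEF. The fourth, 1420243_at, was below the floor on every array. The higher level of iNSC_14F over MEF was less well supported, at 2.85-fold, 1.12-fold and, in the other direction, a bound of at least 1.04-fold. With the median of the 4 probe sets Zeb1 was 1.56 (log2) higher in NSC than in MEF, iNSC_13F was at least 0.35 (log2) lower than MEF, and iNSC_14F was 0.30 lower. With scaling to hybridization controls the log2 difference between NSC and MEF was 4.08, and those of the induced arrays from NSC were -3.71 and -2.58.

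Zeb2 was present in fibroblasts and in neural stem cells and not detected by 3 of its probe sets in either induced sample. Of its 5 probe sets, 1422748_at gave 581 in MEF and 596 in NSC, with 29.4 in iNSC_13F and 80.6 in iNSC_14F. A second, 1456389_at, gave 350 in MEF and 725 in NSC, with 41.9 in iNSC_13F and 38.9 in iNSC_14F, and 1434298_at gave 228, 386, 64.5 and 76.8. On these 3 probe sets both references were above the floor and both induced arrays below it. With the first, NSC and MEF differed by 1.03-fold, a difference whose sign changed with the scaling, from 0.04 (log2) to -0.08 with quantile normalization and 0.93 with scaling to hybridization controls. Zeb2 was lower in each induced sample by at least 5.59-fold against MEF and at least 5.74-fold against NSC. The other 2 probe sets were dim. One, 1458941_at, gave 140 in MEF and 82.2 in NSC, with 118 in iNSC_13F and 102 in iNSC_14F and did not show the pattern, and 1454200_at was below the floor on every array.

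Prrx1 was read by 6 probe sets, of which 5 were above the floor in MEF. The main probe set, 1425528_at, gave 5357 in MEF and 438 in NSC, with 116 in iNSC_13F and 87.1 in iNSC_14F. The order was MEF, then NSC, then the induced arrays, which lay at the floor and differed from each other by a bound of at least 1.12-fold. Prrx1 was 12.2-fold lower in NSC than in MEF, 46.2-fold lower in iNSC_13F, and lower by at least 51.6-fold in iNSC_14F. Against NSC the fold was 3.78 in iNSC_13F and at least 4.22 in iNSC_14F, again lower. The probe sets 1425526_a_at, 1432129_a_at and 1439774_at gave 2015, 1203 and 1100 in MEF, and 104, 21.1 and 127 in NSC, and were below the floor on both induced arrays. All 5 measured probe sets were lower in NSC than in MEF, 4 of them by at least 4-fold. The gap to MEF thus did not rest on 1 probe set. In NSC the 2 others above the floor, 1425526_a_at and 1439774_at, were close to it. Against NSC they gave bounds of just -0.004 and -0.29 (log2) on both induced arrays, so the gap to NSC rests on 1425528_at alone.

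Counts over the factors were set beside the same counts over all genes. A gene was measured in a comparison if it was above the floor on at least 1 of both arrays. It was called if it differed by at least 4-fold. A gene above the floor on just 1 of both arrays gives a bound, whose direction is fixed by which array that is. This holds for the gene lists below too. Between NSC and MEF all 8 factors were measured. Of these, 4 were lower in NSC (Twist1, Twist2, Snai2 and Prrx1) and 1 was higher (Zeb1), where 7.21% of all 11492 measured genes were called lower and 6.09% higher. Their median log2 difference was -2.25, against -0.01 for all genes, and 5 of the 8 values were bounds. These 5 factors were above the floor in MEF and not in NSC, so lower was their only possible direction. With scaling to hybridization controls the split of all genes between NSC and MEF became 16.5% higher and 4.39% lower, with a median of 0.80.

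Against MEF, the 13-factor induced cells had 4 of 8 factors lower (Twist2, Snai2, Zeb2 and Prrx1) and 0 higher, beside 9.27% and 3.66% of all genes. The median of the factors was -1.69, and that of all genes was 0.09. In the 14-factor cells 5 of 8 were lower, the same 4 genes and Twist1, and 0 were higher. The shares of all genes were 8.03% and 4.49%, and the medians were -3.23 for the factors and 0.10 for all genes. Of the 8 values, 5 in iNSC_13F and 7 in iNSC_14F were bounds, and both medians of the factors rest on bounds. Being above the floor in MEF and not on the induced array, those factors could only come out lower. On both induced arrays the call for Zeb2 against MEF was lost with the floor at the 99th percentile, with a bound of -1.67 (log2), and with the median of its probe sets, with a bound of -1.13. The comparisons with MEF share that array. With a cut of 2-fold, Zeb1 joined as higher in iNSC_14F.

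Against NSC, 4 factors were measured in iNSC_13F and 3 in iNSC_14F, because the others were below the floor on both arrays. In iNSC_13F Twist1 was called higher and Zeb1 and Zeb2 lower, where 1.07% of all genes were called higher and 11.3% lower. The median was -2.22, against 0.30 for all genes. In iNSC_14F 0 were called higher, and Zeb2 and Prrx1 were called lower, where the shares of all genes were 1.42% and 9.40%. The median there was -2.08, against 0.33. Bounds were 2 of the 4 values in iNSC_13F and 2 of the 3 in iNSC_14F, where the median is itself the bound of Prrx1. With scaling to hybridization controls the medians of all genes against NSC were -0.65 in iNSC_13F and -0.48 in iNSC_14F, and 20.3% and 17.1% of genes were called lower. With 3 or 4 genes measured, these counts are a description of single genes. The calls for Zeb2 were lost when the floor was set at the 99th percentile of the receptor probe sets, with bounds of -1.71 (log2) on both arrays, as was that for Prrx1 in iNSC_14F, with -1.26.

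**Figure D2:**
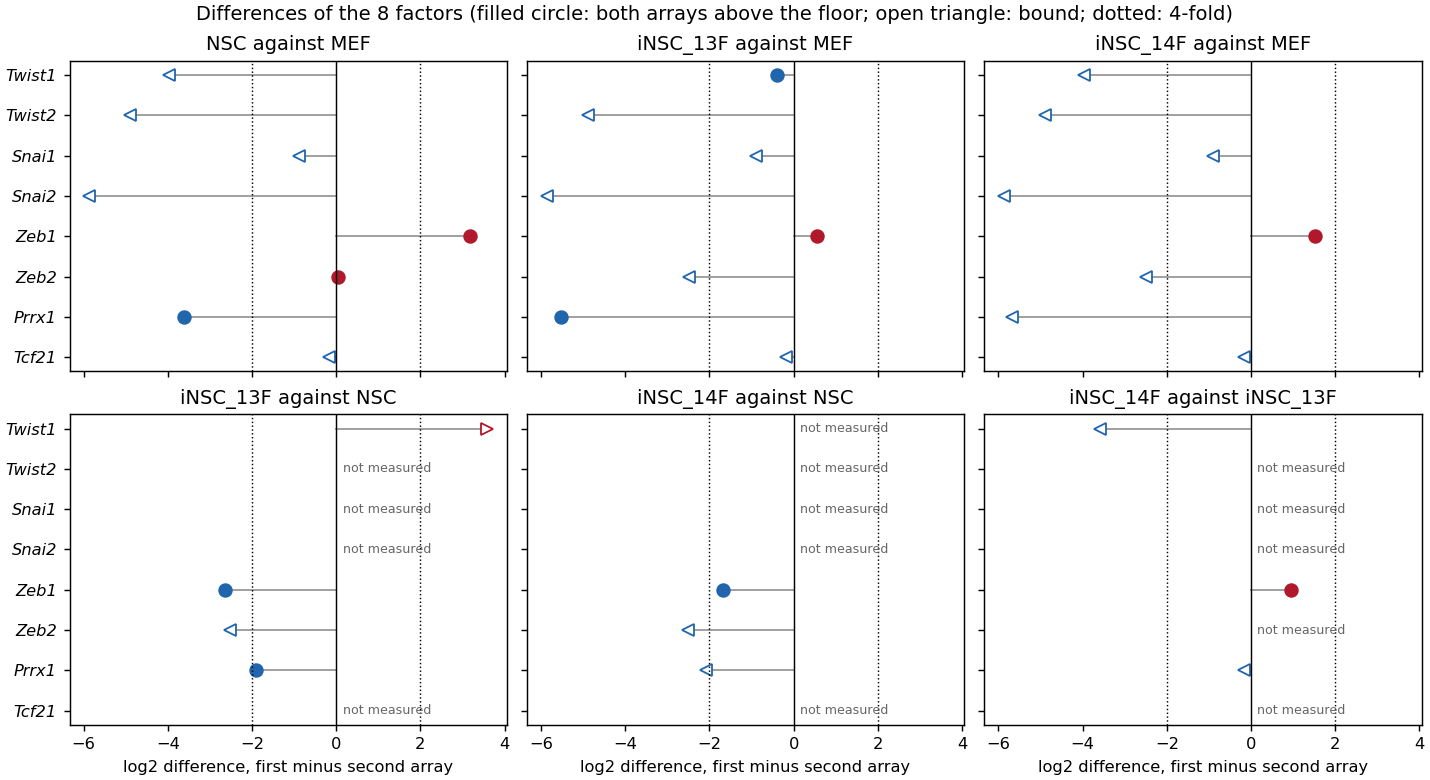
Log2 difference of each factor in the 6 comparisons, first array minus second, with 1 array per group. Filled circles are differences with both arrays above the floor, open triangles are bounds, dotted lines mark 4-fold, and factors below the floor on both arrays are written as not measured. Zeb1 is the only factor higher in NSC than in MEF by over 4-fold, and Twist1 stands near 0 in iNSC_13F against MEF.

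Between the induced samples Twist1 was the only factor called, lower in iNSC_14F, where 0.342% of all 10809 genes were called lower and 0.500% higher. Its bound ranked 7 from the lowest among these genes. The other 2 measured factors were Zeb1, 1.95-fold higher in iNSC_14F by its main probe set and 1.06-fold lower by 1443005_at, and Prrx1. The pattern of Twist1, taken from its own signals, was counted over all genes, Twist1 included. Of 828 genes at least 4-fold lower in NSC than in MEF, 87 were within 2-fold of MEF in iNSC_13F, and 8 of these were at least 4-fold lower in iNSC_14F than in iNSC_13F. Twist1 was the only 1 of the 8 factors among the 87, and 0 of the factors were among the 83 genes within 2-fold of MEF in iNSC_14F. The pattern of Zeb2 was level in both references and at least 4-fold lower than both in each induced sample. It too was taken from the signals of the gene, and 138 of 12320 genes above the floor on some array had it, Zeb2 included.

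**Figure D3:**
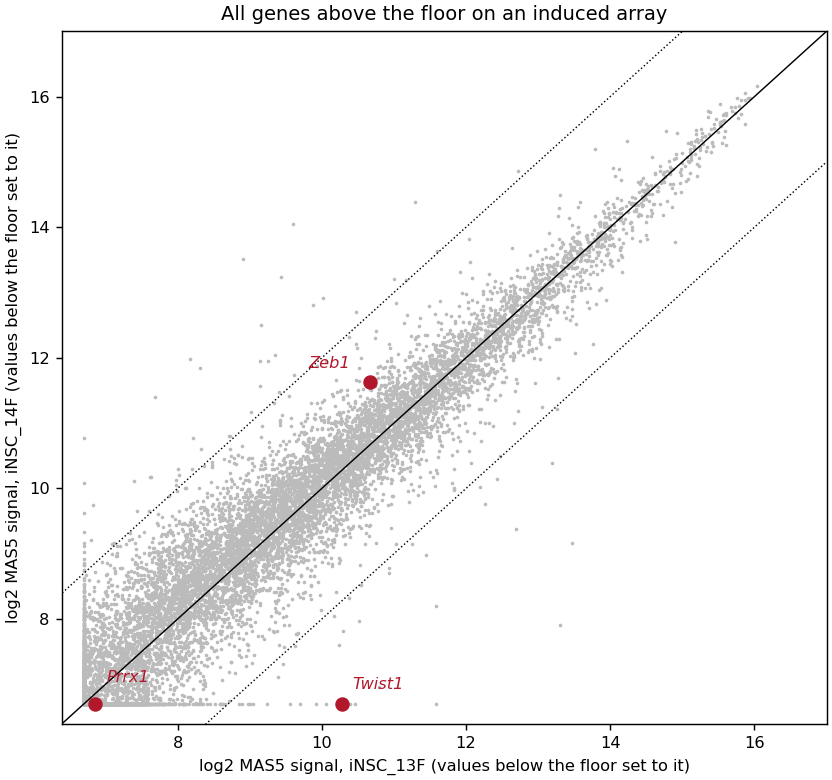
Log2 MAS5 signal of every gene above the floor on at least 1 induced array, iNSC_13F on the horizontal and iNSC_14F on the vertical axis, 1 array each, with values below the floor set to it. The solid line is equality, the dotted lines are 4-fold, and red points are the 3 factors measured here. Twist1 lies at the floor in iNSC_14F and outside the 4-fold line, while Zeb1 and Prrx1 lie inside it.

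The genes most like each factor were found by distance between log2 profiles over the 4 arrays, each profile minus its mean. The nearest genes to Twist1 were Sgk1, a kinase gene, at a distance of 0.54, Hbegf, an EGF receptor ligand gene, at 0.56, and Cemip, a hyaluronan-binding protein gene, at 0.61. Sgk1 had signals of 7069 in MEF and 726 in NSC, with 6597 in iNSC_13F and 667 in iNSC_14F, and Hbegf had 10274, 611, 11304 and 574. Just 5 genes lay within a distance of 1 from Twist1, and 14 from Prrx1, with Lpp nearest at 0.27. The nearest to Zeb1 was Myo6, a myosin gene, at 0.17, with signals of 198, 1814, 284 and 493, then Gprasp1 and the laminin receptor subunit gene Itga6. Zeb2 was nearest to Wwp1, a ubiquitin ligase gene, at 0.04, with 601, 608, 25.1 and 72.9. Snai2 was nearest to Smoc2 and Twist2 to Ptx3, both at 0.02 and both matching on 3 arrays below the floor, where values have no order. For Snai1 and Tcf21, 3721 and 6081 genes lay within a distance of 1, so their nearest genes say little. Among the factors themselves, Twist2 and Snai2 were 0.84 apart, and Twist1 and Twist2 3.44.

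Other transcription factor genes of mesenchyme were read for comparison. Of 20 listed, 19 had a probe set. Against MEF, 8 of 16 measured were at least 4-fold lower in NSC, 5 of 17 in iNSC_13F and 5 of 16 in iNSC_14F, beside 7.21%, 9.27% and 8.03% of all genes, and 0 were higher in any. Their medians were -2.01, -1.17 and -1.62 (log2), and 14, 10 and 8 of the values were bounds. Foxc2, a forkhead factor of paraxial mesoderm, had a signal of 3155 in MEF and between 2.35 and 7.58 elsewhere. Prrx2, the paralog of Prrx1, gave 1725 in MEF and 55.4 in NSC, with 173 in iNSC_13F and 250 in iNSC_14F. Some of these genes were above the floor in induced cells and below it in NSC. Tbx15, a T-box factor of limb and trunk mesenchyme, gave 1282 in MEF and 37.4 in NSC, with 571 in iNSC_13F and 657 in iNSC_14F. Msx1, a homeobox factor downstream of BMP, gave 272, 79.6, 855 and 318. Runx1, a factor of blood and mesenchyme, gave 957, 31.4, 391 and 13.7, so that it too was above the floor in iNSC_13F and below it in iNSC_14F, by at least 3.77-fold. Against NSC, 2 of 8 measured were at least 4-fold higher in iNSC_13F, Msx1 (at least 8.23-fold) and Tbx15 (at least 5.50-fold), and 1 of 8 in iNSC_14F, Tbx15 (at least 6.32-fold), beside 1.07% and 1.42% of all genes. Quantile normalization gave 4 of 8 in iNSC_13F, with Foxc1 and Runx1 added. The medians of the 8 were 1.84 and 0.73. With scaling to hybridization controls 9 were measured and the medians were 0.72 and 0.39.

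**Figure D4:**
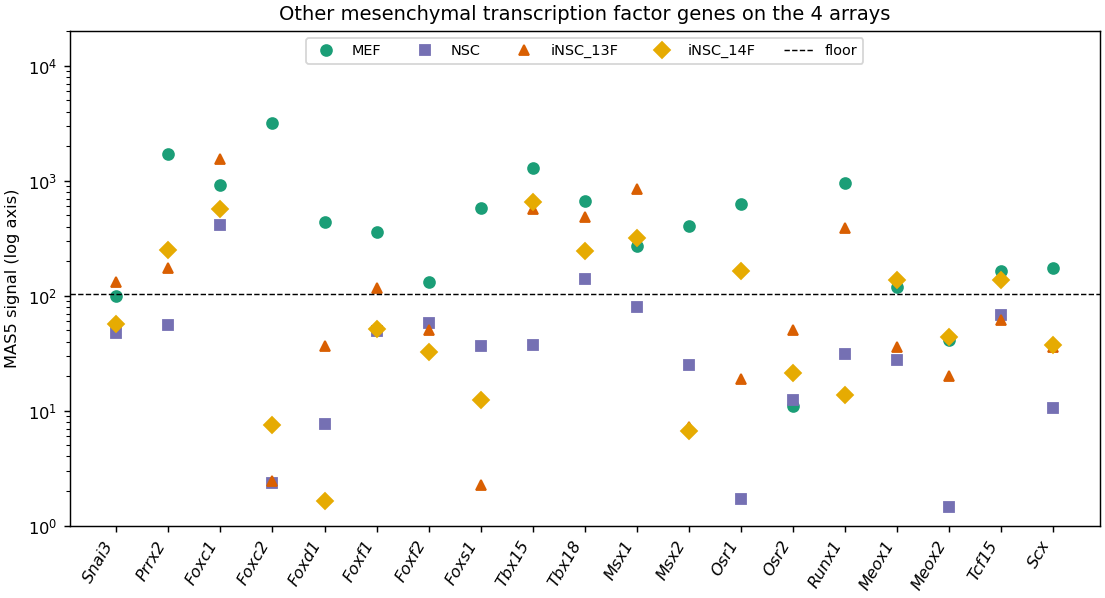
Signal of 19 other mesenchymal transcription factor genes on the 4 arrays, 1 array per group, on a log axis, with the floor dashed. Of these genes 16 are above the floor in MEF, 2 in NSC against 8 in iNSC_13F and 8 in iNSC_14F.

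The bHLH factors act with E proteins and are held back by Id proteins, which pair with E proteins but do not bind DNA. Of 9 genes of these families, 1 was at least 4-fold higher in NSC than in MEF, Tcf4, and 1 lower, Id4, where 6.09% and 7.21% of all genes were called, so the count is near the background. Of the E protein genes, Tcf4 gave 2173 in MEF and 11303 in NSC, with 1655 in iNSC_13F and 2637 in iNSC_14F. Tcf12 gave 3484, 10503, 2597 and 3626. Both were highest in NSC, by 5.20-fold and 3.01-fold over MEF, and near the MEF level on the induced arrays. Tcf3 gave 1313, 1817, 2874 and 2810. Id1 and Id3 were high on all arrays and lowest in NSC, at 1893 and 5937, against 5118 and 11906 in MEF. The difference of Id3 between iNSC_13F and NSC, 0.90 (log2), was -0.17 with scaling to hybridization controls, and that of Tcf3 went from 0.66 to -0.41. Id4 gave 1152 in MEF and 61.7 in NSC, with 96.6 in iNSC_13F and 146 in iNSC_14F.

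TGF-beta ligands are inducers of Snail and ZEB genes in epithelial cells. Of 14 genes of this pathway with a probe set, 9 were at least 4-fold lower than MEF in each of NSC, iNSC_13F and iNSC_14F, beside 7.21%, 9.27% and 8.03% of all genes, and 0 were higher, with medians of -2.64, -2.95 and -2.73. Of the 14 values 9, 6 and 4 were bounds. The count called lower in NSC was 6 with scaling to hybridization controls. Against NSC, 2 of 9 were higher and 2 lower in iNSC_13F, beside 1.07% and 11.3% of all genes. In iNSC_14F 1 of 10 was higher and 2 lower, beside 1.42% and 9.40%. The ligand gene Tgfb3 gave 5401 in MEF and 49.1 in NSC, with 4.82 in iNSC_13F and 195 in iNSC_14F. The receptor gene Tgfbr1 gave 1402, 2128, 254 and 333, so that it was 8.37-fold and 6.38-fold lower than NSC in the induced cells. Skil, a feedback repressor of Smad proteins, had a signal of 1014 in NSC against 101 in iNSC_13F and 156 in iNSC_14F, a fold of at least 9.76 and of 6.50 below NSC. Against NSC just 1 of the 3 probe sets of Tgfbr1 and 1 of the 2 of Skil were measured. Ccn2, which encodes a matrix protein induced by TGF-beta, gave 48902 in MEF and 33.5 in NSC, with 1070 in iNSC_13F and 24.0 in iNSC_14F.

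Corepressors and cofactors of these factors were above the floor on all 4 arrays for 16 of 16 genes. Between NSC and MEF 1 was at least 4-fold higher, the Polycomb methyltransferase gene Ezh2 (4.61-fold), and 1 lower, Ajuba (7.71-fold), which encodes a LIM protein that binds Snail factors, beside 6.09% and 7.21% of all genes. The Polycomb gene Suz12 gave 1379 in MEF and 3431 in NSC, with 294 in iNSC_13F and 495 in iNSC_14F. It was 11.7-fold and 6.93-fold lower in the induced cells than in NSC, with 6 of 6 probe sets in that direction, 3 of them by at least 4-fold. Against NSC 2 of 16 were at least 4-fold lower in iNSC_13F and 1 of 16 in iNSC_14F, beside 11.3% and 9.40% of all genes. Scaling to hybridization controls gave 4 of 16 higher in NSC than in MEF, beside 16.5% of all genes, and 5 and 4 lower than NSC in the induced cells, beside 20.3% and 17.1%.

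Epithelial genes, which the Snail and ZEB proteins repress, were mostly below the floor outside MEF. Of 22 on the array, 10 exceeded the floor in MEF, 2 in NSC against 3 in iNSC_13F and 3 in iNSC_14F. Cdh1 gave 29.4, 16.5, 6.86 and 1.30, all below the floor, and Esrp1, Ovol2 and Rab25 were below it on every array as well. Epcam, at 207, 106, 155 and 233, and Crb3, at 190, 138, 281 and 134, were above it on all 4 arrays. Elf3 gave 145, 88.8, 212 and 109, above it on all but NSC. In NSC against MEF 2 of 10 measured were at least 4-fold lower, the keratin genes Krt19 (764 in MEF, at least 7.35-fold) and Krt18 (584 in MEF, at least 5.62-fold), and 0 were higher, beside 7.21% and 6.09% of all genes. Of those 10 genes, 8 were above the floor in MEF and not in NSC, so lower was their only possible direction. The induced samples had 0 of 3 called in either direction against NSC.

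Mesenchymal effector genes were lower outside MEF, with 17 of 20 at least 4-fold lower in NSC, 16 in iNSC_13F and 17 in iNSC_14F, beside 7.21%, 9.27% and 8.03% of all genes, 0 higher, and medians of -6.58, -5.59 and -6.01. Of the 20 values 10, 7 and 10 were bounds. With scaling to hybridization controls 1 of 20 was called higher in NSC, Pdgfra. Its signal was 223 in MEF and 589 in NSC, 2.64-fold higher, with 1 of 2 measured probe sets in that direction, and it was at least 5.67-fold below NSC on each induced array, at 7.52 and 5.27. Among those most apart were Col1a2 and Tagln, with folds of at least 497 and at least 311 between MEF and NSC. Cdh2, the N-cadherin gene, and Vim, the vimentin gene, which are used as mesenchymal markers and are also expressed in neural stem cells, were not among those called. Cdh2 gave 4093 in MEF and 6272 in NSC, with 5079 in iNSC_13F and 4935 in iNSC_14F, and Vim gave 53269, 28487, 49531 and 45526. Against NSC, Fn1, the fibronectin gene, had signals of 255 in NSC against 1954 in iNSC_13F and 3534 in iNSC_14F, which is 7.68-fold and 13.9-fold above NSC. These folds rest on 1 of its 2 probe sets, as the other was not measured there. Of 16 effector genes measured in iNSC_13F against NSC, 2 were higher by at least 4-fold and 1 lower, beside 1.07% and 11.3% of all genes. Of 13 in iNSC_14F 1 was higher and 1 lower, beside 1.42% and 9.40%. That count of 2 became 0 of 15 with scaling to hybridization controls.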

How the data were processed

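Expression was read from 4 Affymetrix arrays. Per the submitters' processing notes, signals came from MAS5. Its version was not given in the labels. The deposited intensities are linear, 1 per probe set, with a 2% trimmed mean of 500 on each array, and were not scaled further. Gene names came from the annotation of the platform, updated by gene ID with a GRCm38.p6 table. Of 45101 probe sets, 34945 had 1 gene, of which 34754 matched by ID, and those with several genes or none were not named. For a gene with several probe sets, the one with the highest mean floored log2 signal was used. The floor was the highest of the 4 arrays' 95th percentiles of receptor probe sets, and lower values were set to it. A call is a rule of size (4-fold), not a test. Named genes are all 8 factors, up to 4 genes of each list with the largest differences in NSC against MEF and up to 4 in each induced array against NSC, any gene of the lists of other mesenchymal factors, E proteins and Id proteins, and epithelial genes, defining markers, and for likeness the 3 nearest genes. Cdh2 and Vim were named after their values were seen. The factors, lists and rules were chosen with earlier results of these data known. Analysis used Python 3.11.15, numpy 2.4.6 and pandas 2.3.3. Alternatives were other scalings, floors, probe set rules and a 2-fold cut.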

Additional observations from a re-analysis of the deposited data

How the results depend on the processing

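Each of 18 results, the counts higher and lower and the median of the factors in 6 comparisons, was recomputed under 7 or 8 alternatives. Of 138 values, 118 stayed within 1.5 times the count or within 0.585 (log2), the SD between the induced arrays, and 0 medians changed sign. Part of this was fixed in advance. Against MEF, 5, 5 and 7 of the 8 values in NSC, iNSC_13F and iNSC_14F were bounds. The sign of a bound follows from which array exceeds the floor. Scaling to hybridization controls left the bounds of Twist1, Twist2 and Snai2 against MEF unchanged. Scaling to hybridization controls gave medians of -3.19 for iNSC_13F against NSC, -2.97 for iNSC_14F against NSC and -1.13 between the induced arrays. With the floor at the 75th percentile those of iNSC_13F and iNSC_14F against MEF were -2.74 and -3.88. With it at the 99th, NSC against MEF was -3.16, iNSC_13F against NSC -1.48 and the induced pair -0.90. At that floor 1 factor in iNSC_13F and 0 in iNSC_14F were called at least 4-fold lower than NSC. With no floor and a pseudocount of 16, medians were -2.85 for NSC against MEF, -3.32 for iNSC_13F against MEF, and -0.10 and -0.77 for iNSC_13F and iNSC_14F against NSC, over all 8 factors. Taking the median over all probe sets of each gene, 0 factors were called higher in NSC than in MEF at 4-fold. Likewise 0 were called lower than NSC on either induced array. Zeb1 was then 1.56 (log2) higher in NSC than in MEF, short of that cut. The medians were -3.47 for NSC against MEF and -1.77 between the induced arrays. A cut of 2-fold gave 1 factor higher in iNSC_14F than in MEF. Where a floor or a rule changed which factors were measured, the median covers other genes. Other causes were not tested. With 1 array per group, no replicate could be left out. Bounds are set by the floor, and signal over background limits what can be said of Snai1 and Tcf21.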
